A study of Mus musculus with 6 samples.

Results

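The epidermal growth factor (EGF) receptor family and its ligands were examined in cultured mouse epidermal keratinocytes from mice bred to lack the transcription factors Ovol1 and Ovol2. The set was listed by gene symbol as 3 receptors (Egfr, Erbb2 and Erbb3) and 6 ligands (Areg, Ereg, Hbegf, Tgfa, Epgn and Btc). Of these 9 genes, 8 were measured by a probe set annotated to that symbol alone, against 19938 genes measured in all. Areg, the amphiregulin gene, had no such probe set and has no value here. Each measured member had 1 probe set, so no choice between probe sets arose.

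RNA was hybridised to 6 one-colour Affymetrix arrays, 2 for each of 3 groups of C57BL/6 mice at E18.5, shortly before birth. The Ovol1/2 DKO group carried Ovol2flox/- with K14-Cre on an Ovol1-/- background, so that Ovol2 was to be lost where the keratin 14 promoter drives Cre. The group labelled Ovol1 KO was Ovol1-/-. The Control group was described as Ovol2flox/+ and either Ovol1+/- or carrying K14-Cre, and the labels do not say which array held which. All groups were keratinocytes isolated from skin and cultured for 2 to 5 days with no calcium added, and each array pooled RNA from 2 mice. The arrays measured whole cultures, so fewer cells of a type and less RNA per cell cannot be told apart in any value given here.

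The EGF receptors are tyrosine kinases that pair with each other when a ligand binds. Egfr binds the ligands listed here directly, Erbb2 has no known ligand and acts as a partner, and Erbb3 has a weak kinase and signals mainly as a partner of Erbb2 or Egfr after binding neuregulins. The ligands are made as membrane proteins and are released by proteases. In the epidermis Egfr is known to drive keratinocyte proliferation and migration and to hold back differentiation, and keratinocytes make several of its ligands themselves.

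The arrays were checked against their labels first. Levels are given as log2(intensity + 16). The arrays had like medians over the 35556 probe sets, at 103.3 to 109.8 intensity units. Upper quartiles ran from 486.1 to 589.9 and were higher on replicate 1 than on replicate 2 in each group. Probe sets without a gene symbol had array medians of 6.12 to 6.20 on replicate 1 arrays and 5.89 to 5.93 on replicate 2 arrays. Ovol1 stood at 5.96 and 6.22 on the Ovol1/2 DKO arrays, 10.75 and 9.80 on those labelled Ovol1 KO, and 9.64 and 9.95 on Control arrays. The Ovol1 signal of the arrays labelled Ovol1 KO therefore went against their label, and directions drawn from those arrays carry this doubt. Whether the probe sets for Ovol1 and Ovol2 lie in the deleted parts was not tested, and Ovol2 did not separate the groups (7.63 and 7.50 in Ovol1/2 DKO, 7.88 and 8.38 in labelled Ovol1 KO, 8.37 and 6.97 in Control). Replicate 1 of labelled Ovol1 KO and replicate 1 of Control lacked the Xist signal that the other 4 arrays had, although all 6 are labelled female. The Y-linked gene Eif2s3y stood at 13.80 on replicate 1 of labelled Ovol1 KO and at 4.80 to 5.14 on the other 5 arrays, so these replicate 1 arrays differ from each other too. The keratinocyte markers Krt5 and Krt14 lay between 13.21 and 13.55 on all 6 arrays. Trp63, another keratinocyte marker, stood at 11.40 and 11.40 in Ovol1/2 DKO, 10.44 and 10.16 in labelled Ovol1 KO, and 10.59 and 10.34 in Control.

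In Ovol1/2 DKO against Control, 2 of the 8 measured members fell and none rose: the receptor gene Erbb3 and the ligand gene Ereg. Erbb3 was 7.24-fold lower and Ereg 2.98-fold lower. Egfr and Erbb2 did not pass the test, nor did Tgfa, Hbegf, Epgn or Btc. The test was limma's moderated linear model over all 6 arrays and all 19938 genes, and a gene passed at an adjusted p under 0.05. Of all genes, 2.02% passed in this comparison, and 1.4% passed as lower in Ovol1/2 DKO. The 8 members had a median log2 difference of -0.82, with 7 of 8 below 0. Over all genes the median was 0.03, with 8848 of 19938 below 0. The members were chosen with earlier results of these data known, so these counts are a description. The groups did not overlap, with both Ovol1/2 DKO arrays lower, for 6 of the 8 members, and the same held for 18.1% of all genes.

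Erbb3 on chromosome 10 (probe set 10373467) stood at 7.69 and 7.97 on the Ovol1/2 DKO arrays, 11.14 and 10.79 on those labelled Ovol1 KO, and 10.43 and 10.95 on Control arrays. Both Ovol1/2 DKO arrays lay far under the other 4, and the other groups overlapped each other. The log2 difference between Ovol1/2 DKO and Control was -2.86 (SE 0.26, 95% interval -3.48 to -2.23, limma adjusted p = 0.00755, n = 2 each). It was -2.73 between the replicate 1 arrays and -2.98 between the replicate 2 arrays. Leaving out any 1 array, or changing any other setting tried, left Erbb3 lower and past the threshold.

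The remaining receptors gave no such split. Egfr on chromosome 11 (probe set 10374366) stood at 10.81 and 10.97 in Ovol1/2 DKO, at 10.43 and 10.80 in labelled Ovol1 KO, and at 10.86 and 10.80 in Control. The Ovol1/2 DKO and Control arrays overlapped, and the log2 difference between them was 0.06 (SE 0.22, limma adjusted p = 1.0, n = 2 each). Its 95% interval of -0.45 to 0.58 bounds what these arrays allow for Egfr. Erbb2 on chromosome 11 (probe set 10380896) stood at 9.35 and 9.31 in Ovol1/2 DKO, at 10.44 and 9.40 in labelled Ovol1 KO, and at 9.69 and 9.38 in Control. The Ovol1/2 DKO arrays were the lowest, but only narrowly under replicate 2 of each other group, and replicate 1 of labelled Ovol1 KO stood apart as high. The Erbb2 difference was -0.21 (SE 0.35, 95% interval -1.04 to 0.63, limma adjusted p = 1.0, n = 2 each).

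The unequal change of the receptors was measured within each array as the log2 level of Erbb3 minus that of Egfr, which any scaling of the whole array leaves nearly unaltered. This within-array difference was -3.12 and -3.003 in Ovol1/2 DKO, 0.71 and -0.01 in labelled Ovol1 KO, and -0.43 and 0.15 in Control. It was lower on both Ovol1/2 DKO arrays than on any other, and its change against Control was -2.92. For Erbb3 minus Erbb2 the change was -2.65. In each case the exact permutation test gave a two-sided p of 0.333, the smallest that 2 arrays against 2 can give. The test could therefore not fall under 0.05, and nothing is drawn from it.

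**Figure D1:**
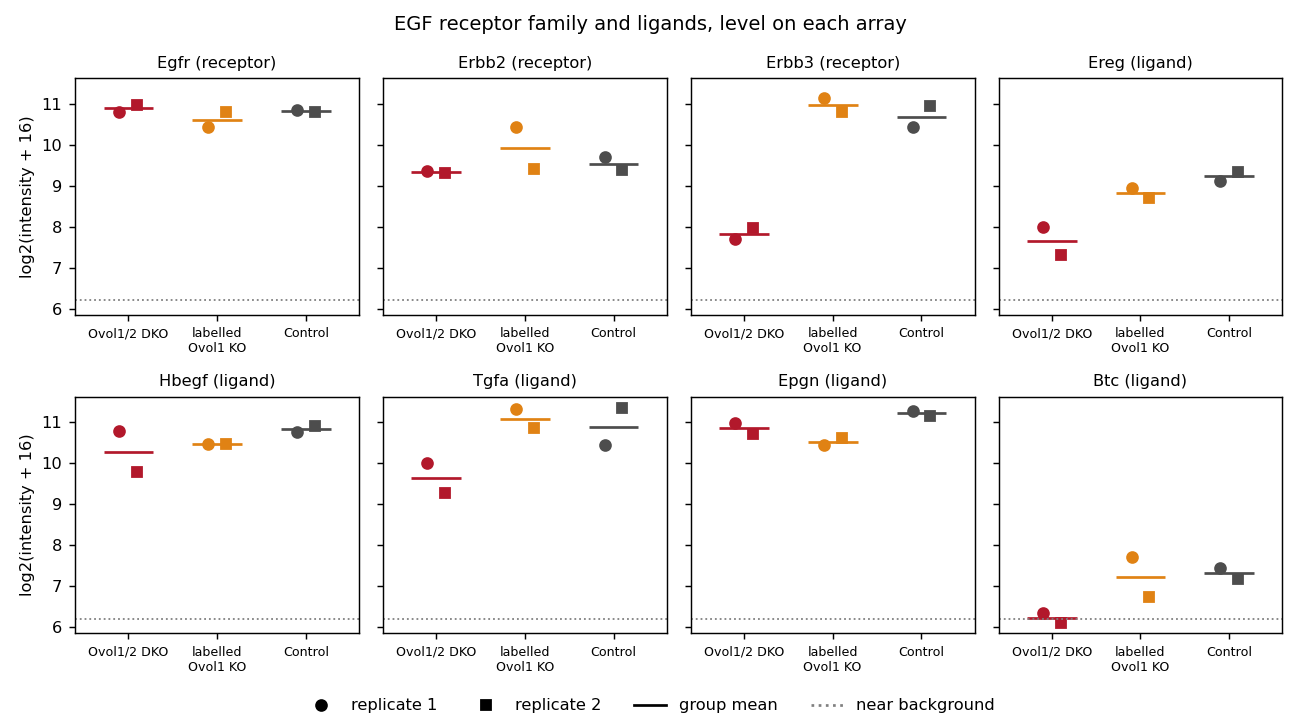
Level of each of the 8 measured members as log2(intensity + 16) on the vertical axis, with 1 panel per gene and the groups Ovol1/2 DKO, labelled Ovol1 KO and Control from left to right. Circles are replicate 1, squares replicate 2, short lines group means and the dotted line the near-background level of 6.197. Erbb3 lies at 7.69 and 7.97 in Ovol1/2 DKO and above 10 on the other 4 arrays, while the Egfr arrays of all groups lie between 10.43 and 10.97.

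Among the ligands, Ereg passed the test and the differences of Tgfa and Btc were over 1 on the log2 scale without passing. Ereg encodes epiregulin, a ligand of Egfr and of Erbb4. On chromosome 5 (probe set 10523175) it stood at 7.99 and 7.31 in Ovol1/2 DKO, at 8.95 and 8.69 in labelled Ovol1 KO, and at 9.11 and 9.34 in Control. The 3 groups did not overlap, with Ovol1/2 DKO lowest and Control highest. The Ovol1/2 DKO minus Control difference was -1.58 (SE 0.28, 95% interval -2.24 to -0.91, limma adjusted p = 0.0466, n = 2 each), and it was -1.12 between replicate 1 arrays and -2.03 between replicate 2 arrays. The Ereg call lay close to the threshold and was lost when any 1 of the 6 arrays was left out, with limma adjusted p between 0.0672 and 0.278.

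Tgfa, which encodes the Egfr ligand transforming growth factor alpha, lies on chromosome 6 (probe set 10539692). It stood at 10.00 and 9.27 in Ovol1/2 DKO, at 11.32 and 10.86 in labelled Ovol1 KO, and at 10.43 and 11.36 in Control. Both Ovol1/2 DKO arrays were under the other 4, but replicate 1 of Control lay close to replicate 1 of Ovol1/2 DKO (a difference of -0.44), against a difference of -2.09 between the replicate 2 arrays. The difference from Control was -1.26 (SE 0.39, 95% interval -2.19 to -0.33) and did not pass (limma adjusted p = 0.247, n = 2 each). With replicate 1 of Control and of labelled Ovol1 KO both left out, Tgfa passed at -1.72 (limma adjusted p = 0.0207), which rests on 1 Control array.

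Btc encodes betacellulin, which binds Egfr and Erbb4. On chromosome 5 (probe set 10531274) it was the dimmest member, at 6.35 and 6.11 in Ovol1/2 DKO, 7.70 and 6.73 in labelled Ovol1 KO, and 7.44 and 7.18 in Control. Both Ovol1/2 DKO arrays were lowest and lay about the near-background level of 6.197, taken as the highest array median of probe sets without a gene symbol. The difference from Control was -1.08 (SE 0.34, 95% interval -1.89 to -0.27, limma adjusted p = 0.256, n = 2 each) and was alike between replicate 1 arrays (-1.09) and replicate 2 arrays (-1.07). On this scale the change of so dim a gene is understated.

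Hbegf and Epgn completed the measured ligands. Hbegf, the heparin-binding EGF-like growth factor gene on chromosome 18 (probe set 10458340), stood at 10.78 and 9.78 in Ovol1/2 DKO, at 10.46 and 10.47 in labelled Ovol1 KO, and at 10.77 and 10.91 in Control. Replicate 2 of Ovol1/2 DKO alone was low, replicate 1 was level with Control, and the groups overlapped. The Hbegf difference was -0.56 (SE 0.33, 95% interval -1.35 to 0.23, limma adjusted p = 0.763, n = 2 each). Epgn, the epigen gene on chromosome 5 (probe set 10523168), stood at 10.99 and 10.72 in Ovol1/2 DKO, at 10.44 and 10.62 in labelled Ovol1 KO, and at 11.28 and 11.16 in Control. Its order differed from that of Ereg, since here the arrays labelled Ovol1 KO were the lowest. Its difference from Control was -0.37 (SE 0.21, 95% interval -0.86 to 0.12, limma adjusted p = 0.715, n = 2 each).

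**Figure D2:**
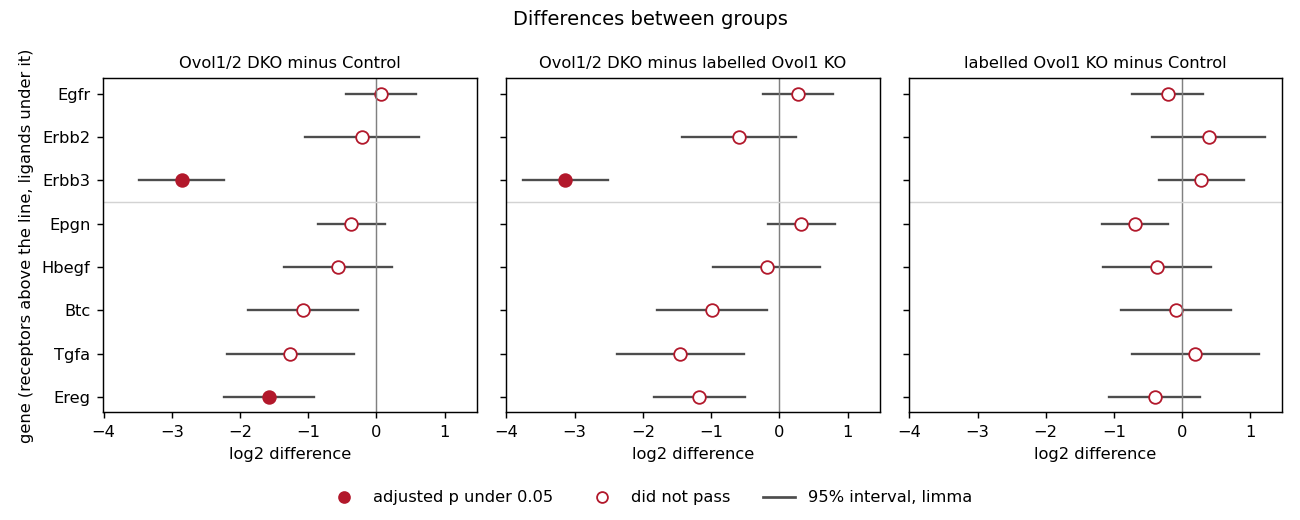
Log2 difference of each member (horizontal axis) in Ovol1/2 DKO minus Control, Ovol1/2 DKO minus labelled Ovol1 KO and labelled Ovol1 KO minus Control, with receptors above the line and ligands under it. Points are limma estimates, bars their 95% intervals and filled points passed at an adjusted p under 0.05. Erbb3 is filled in both comparisons of Ovol1/2 DKO (-2.86 and -3.13), Ereg only in the first (-1.58), and no point is filled in the third.

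Epgn, Ereg, Areg and Btc are neighbours on mouse chromosome 5 in that order, with no other protein-coding gene listed between them. Their differences between Ovol1/2 DKO and Control were unequal, at -0.37 for Epgn, -1.58 for Ereg and -1.08 for Btc, of which Ereg alone passed. The within-array log2 level of Ereg minus that of Epgn was -2.997 and -3.41 in Ovol1/2 DKO, -1.49 and -1.93 in labelled Ovol1 KO, and -2.17 and -1.82 in Control. The change against Control was -1.21, with both Ovol1/2 DKO arrays under the other 4 (exact permutation test, two-sided p = 0.333, the smallest possible).

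The DNA just upstream of members was read for short sequences, among them CACCTG, which the repressor encoded by Zeb1 binds. The plan was to read windows of members that passed together. The windows read here depart from it, and Zeb1 was chosen after its values were seen. Zeb1 stood at 11.06 and 11.03 in Ovol1/2 DKO, at 5.88 and 6.29 in labelled Ovol1 KO, and at 6.06 and 6.13 in Control, a log2 difference of 4.95 from Control (SE 0.21, limma adjusted p = 0.00257, n = 2 each). Zeb1 was near background in labelled Ovol1 KO and Control, so this difference is only a lower bound. RefSeq windows of the 250 bases before the start, from the assembly GRCm38.p6, were read for Egfr, Erbb2, Areg, Tgfa, Epgn and Btc. They were searched for CACCTG, for the Ovol sequence CCGTTA and for the AP-1 sequence TGANTCA, each on both strands. CACCTG or its reverse complement stood in 4 of the 6 windows (Areg, Tgfa, Epgn and Btc) and in 17.2% of 32841 windows of the same length over 27018 genes. CCGTTA stood in 0 of the 6 and in 2.18% of all windows, and TGANTCA in 0 of the 6 and in 6.75%. No window was read for Erbb3, Ereg or Hbegf, so the counts out of 6 leave these members out. The 6 windows are not those of the plan and do not cover the whole set. The 4 of 6 beside 17.2% is therefore a description of these windows only, and no enrichment among the members is drawn from it. A match is a description of the letters and not a bound site, and whether Zeb1 acts on any member was not tested. Erbb3 and Ereg, the members that passed against Control, are not among the windows. Tgfa, Btc and Epgn did not pass against Control. The windows of the measured ligands with a match follow, 5′ to 3′ on the gene's strand, with the match in capitals. Counted back from the start, the match began at position -197 in Tgfa, -110 in Btc and -245 in Epgn.
Tgfa, chr6:86194972-86195221, plus strand: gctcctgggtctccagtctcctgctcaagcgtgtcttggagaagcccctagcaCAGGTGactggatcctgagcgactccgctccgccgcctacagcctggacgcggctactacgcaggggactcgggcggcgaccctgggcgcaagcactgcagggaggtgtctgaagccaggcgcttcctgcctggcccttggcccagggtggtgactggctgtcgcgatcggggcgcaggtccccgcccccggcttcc
Btc, chr5:91402995-91403244, minus strand: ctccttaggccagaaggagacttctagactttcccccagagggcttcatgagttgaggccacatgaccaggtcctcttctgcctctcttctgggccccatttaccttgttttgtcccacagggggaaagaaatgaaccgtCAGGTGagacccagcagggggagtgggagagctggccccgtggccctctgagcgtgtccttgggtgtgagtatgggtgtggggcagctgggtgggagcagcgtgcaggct
Epgn, chr5:91027267-91027516, plus strand: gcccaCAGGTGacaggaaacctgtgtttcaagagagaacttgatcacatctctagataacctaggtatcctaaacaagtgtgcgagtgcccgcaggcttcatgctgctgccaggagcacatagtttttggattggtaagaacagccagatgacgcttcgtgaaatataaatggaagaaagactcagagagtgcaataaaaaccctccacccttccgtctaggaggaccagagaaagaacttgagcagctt

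When Ovol1/2 DKO was set against the arrays labelled Ovol1 KO, 1 member passed, Erbb3, which was 8.78-fold lower in Ovol1/2 DKO. Of all genes, 3.15% passed and 1.91% passed as lower. The Erbb3 difference was -3.13 (SE 0.26, 95% interval -3.76 to -2.51, limma adjusted p = 0.00504, n = 2 each). The next differences were those of Tgfa (-1.46, adjusted p = 0.130), Ereg (-1.17, adjusted p = 0.0938) and Btc (-0.99, adjusted p = 0.240), none of which passed in limma. Erbb2 differed by -0.60, Hbegf by -0.19, Egfr by 0.28 and Epgn by 0.32, again without passing. The groups did not overlap for 7 of the 8 members, beside 43.1% of all genes, with the Ovol1/2 DKO arrays lower for 5 and higher for Egfr and Epgn. This comparison shares the Ovol1/2 DKO arrays with the one against Control, so the pair are not separate evidence. The members whose Ovol1/2 DKO arrays were both under all 4 other arrays were Erbb2, Erbb3, Ereg, Tgfa and Btc, as were 2397 of the 19938 genes.

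In labelled Ovol1 KO against Control, 0 members and 0% of all genes passed. At an unadjusted p under 0.05 there was 1 member, Epgn, and 153 of all genes. Epgn differed by -0.69 (SE 0.21, 95% interval -1.18 to -0.20, limma adjusted p = 0.999, n = 2 each), with both labelled Ovol1 KO arrays under both Control arrays. The differences of the other members ran from -0.41 for Ereg to 0.39 for Erbb2, with Erbb3 at 0.28, Tgfa at 0.19, Btc at -0.09, Egfr at -0.21 and Hbegf at -0.37. The median over the 8 members was -0.15. For Erbb3 the 95% interval was -0.35 to 0.90, so a modest change in either direction is within it.

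Erbb3 is also known from melanocytes and Schwann cells, so markers of those cells were read beside it. The 9 melanocyte markers had a mean level of 6.60 and 6.24 in Ovol1/2 DKO, 6.997 and 6.38 in labelled Ovol1 KO, and 7.11 and 7.12 in Control. Of these markers 8 of 9 had a difference below 0 in Ovol1/2 DKO minus Control, beside 8848 of all 19938 genes. Their median was -0.49, and none passed. The pigment enzyme and melanosome genes Tyrp1 (-1.74, limma adjusted p = 0.199), Dct (-1.46, adjusted p = 0.539) and Pmel (-1.11, adjusted p = 0.367) had the largest of these differences. In labelled Ovol1 KO minus Control they differed by -1.15, -1.51 and -0.68, none passing. In Ovol1/2 DKO minus labelled Ovol1 KO they differed by -0.59, 0.05 and -0.42, again without passing. In Ovol1/2 DKO minus Control the melanocyte factor Mitf differed by -0.95 (limma adjusted p = 0.212). Sox10, the factor shared by both lineages, differed by -0.01 there, and Tyr, the tyrosinase gene, was near background in all 3 groups. The 4 measured Schwann cell markers had a median difference of 0.12 and none passed. All 5 Merkel cell markers had a difference below 0, with a median of -0.36. Among them Krt8, a simple epithelial keratin, fell by 1.79 (limma adjusted p = 0.0316, n = 2 each). Its partner Krt18 differed by -1.53 (limma adjusted p = 0.0813, n = 2 each), Isl1 by -0.36 and the Merkel cell factor Atoh1 by -0.13, none of which passed, and Krt20 was near background in all groups.

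The other cell types read were keratinocytes, fibroblasts, endothelial cells and leukocytes. The 12 keratinocyte markers had a mean level of 11.81 and 11.95 in Ovol1/2 DKO, 11.27 and 11.35 in labelled Ovol1 KO, and 11.55 and 11.43 in Control. The 12 fibroblast markers had a mean level of 7.58 and 7.89 in Ovol1/2 DKO, 7.22 and 7.81 in labelled Ovol1 KO, and 7.13 and 7.76 in Control. Of the fibroblast markers 1 passed against Control, the surface protein gene Thy1, which was higher in Ovol1/2 DKO by 1.67 (limma adjusted p = 0.0187, n = 2 each), and the list median was 0.16. None of 6 endothelial markers passed against Control (median -0.02), and 3 of the 6 had a difference below 0. The receptor gene Kdr differed by -1.15 (limma adjusted p = 0.0599) and passed with the replicate block (adjusted p = 0.0363). Kdr also differed by -1.08 in labelled Ovol1 KO minus Control, without passing. Pecam1 went the other way, by 0.84 in Ovol1/2 DKO minus Control, without passing. It was higher by 1.28 than in labelled Ovol1 KO, where it was near background, and passed there (limma adjusted p = 0.0204, n = 2 each). None of 8 leukocyte markers passed against Control (median -0.07). The macrophage lysozyme gene Lyz2 stood at 8.18 on replicate 2 of Control and at 4.77 to 5.52 on the other 5 arrays. The part of other cell types in the Erbb3 and Ereg differences was not tested.

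The wider pathway was read from 5 lists of 72 genes, of which 67 were measured. In Ovol1/2 DKO against Control, 2 of the 67 fell and none rose, with a median difference of -0.04. That share is near the 2.02% of all genes that passed, so the count does not set the lists apart. With the replicate number as a block in the model 4 passed, beside 597 of all 19938 genes, the added genes being Ier3 (adjusted p = 0.0443) and Junb (adjusted p = 0.0478). The genes that fell were Grb7, an adaptor that binds Erbb2 and Erbb3, and Cblc, a Cbl-family ubiquitin ligase that marks active Egfr for breakdown. None of the 6 genes for the fourth receptor and further ligands passed, none of 8 sheddases, rhomboid proteins and the inhibitor Timp3, 1 of 18 feedback inhibitors (Cblc), 1 of 20 measured adaptors and kinases (Grb7), and none of 15 growth factor-induced genes.

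Grb7 stood at 6.13 and 6.37 in Ovol1/2 DKO, at 10.75 and 10.17 in labelled Ovol1 KO, and at 9.45 and 10.43 in Control. It lay about the near-background level in Ovol1/2 DKO and was bright on the other 4 arrays, a log2 difference of -3.69 from Control (SE 0.37, limma adjusted p = 0.00875, n = 2 each). With the Ovol1/2 DKO level so close to background, the size of this fall, and of any difference taken from it, is only a lower bound. Grb7 lies beside Erbb2 on chromosome 11, with Mien1 between them. Mien1 was looked up for its position, after the values were known, and its difference was -0.60 (limma adjusted p = 0.822, n = 2 each). The Grb7 level minus the Erbb2 level of an array was -3.22 and -2.94 in Ovol1/2 DKO, 0.30 and 0.77 in labelled Ovol1 KO, and -0.24 and 1.05 in Control, so that the neighbours changed unequally by -3.49 (exact permutation test, two-sided p = 0.333, the smallest possible).

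Cblc stood at 6.69 and 6.55 in Ovol1/2 DKO, at 10.47 and 10.44 in labelled Ovol1 KO, and at 9.44 and 10.65 in Control. Both Ovol1/2 DKO arrays were far under the rest, with a difference from Control of -3.42 (SE 0.38, limma adjusted p = 0.0123, n = 2 each), or 10.7-fold lower. The Ovol1/2 DKO levels of Cblc lay little above the near-background level of 6.197. The size of its fall, and of any difference taken from those levels, is therefore best read as a lower bound. The relatives Cbl and Cblb did not share it: Cbl differed by 0.20 and Cblb by 0.44, neither passing. Without 1 of the Ovol1/2 DKO arrays the Cblc call was lost (limma adjusted p of 0.0601 without replicate 1 and 0.0736 without replicate 2), while its size stayed at -3.49 and -3.35. It was also lost with an offset of 64 (-2.92, limma adjusted p = 0.0558), and the difference was -4.02 without replicate 1 of Control and -2.82 without replicate 2. The Grb7 call was lost only without replicate 1 of Ovol1/2 DKO, at a limma adjusted p of 0.0504.

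Among the further ligands, Nrg1 and Nrg2 encode neuregulins, the ligands of Erbb3 and Erbb4. Nrg1 stood at 11.22 and 10.77 in Ovol1/2 DKO, at 10.60 and 9.72 in labelled Ovol1 KO, and at 10.89 and 10.27 in Control. The groups overlapped and the difference from Control was 0.41 (SE 0.37, limma adjusted p = 0.964, n = 2 each). Nrg2 differed by 0.47, Nrg3 by 0.47 and Nrg4 by 0.12, with Nrg3 and Nrg4 near background in all 3 groups. Egf itself differed by -0.04 at mean levels of 6.32 in Ovol1/2 DKO and 6.36 in Control, and Erbb4 by -0.24 at 6.23 in Ovol1/2 DKO and 6.47 in Control, all close to the near-background level.

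The rhomboid-like proteins Rhbdf1 and Rhbdf2, which help the protease Adam17 mature and so act on ligand release, came nearest to passing among the sheddase list. Rhbdf2 stood at 8.88 and 9.20 in Ovol1/2 DKO, at 9.86 and 10.15 in labelled Ovol1 KO, and at 9.93 and 9.95 in Control. Both Ovol1/2 DKO arrays were under the other 4, and the difference from Control was -0.90 (SE 0.22, limma adjusted p = 0.132, n = 2 each). Rhbdf1 differed by -0.48 (adjusted p = 0.518 in limma). Among growth factor-induced genes, Ier3, a stress and growth factor response gene, stood at 11.46 and 10.96 in Ovol1/2 DKO, at 12.24 and 12.38 in labelled Ovol1 KO, and at 12.48 and 12.45 in Control. It missed the threshold narrowly at -1.26 (SE 0.23, limma adjusted p = 0.0549, n = 2 each) and passed in 4 of the 16 other settings, with adjusted p from 0.0127 to 0.389 over them. Junb, an AP-1 subunit, differed by -1.03 (limma adjusted p = 0.196, n = 2 each) and passed in 2 of the 16. The growth factor-induced genes as a list had a median difference of -0.23, with 10 of 15 below 0, beside 8848 of all 19938 genes.

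**Figure D3:**
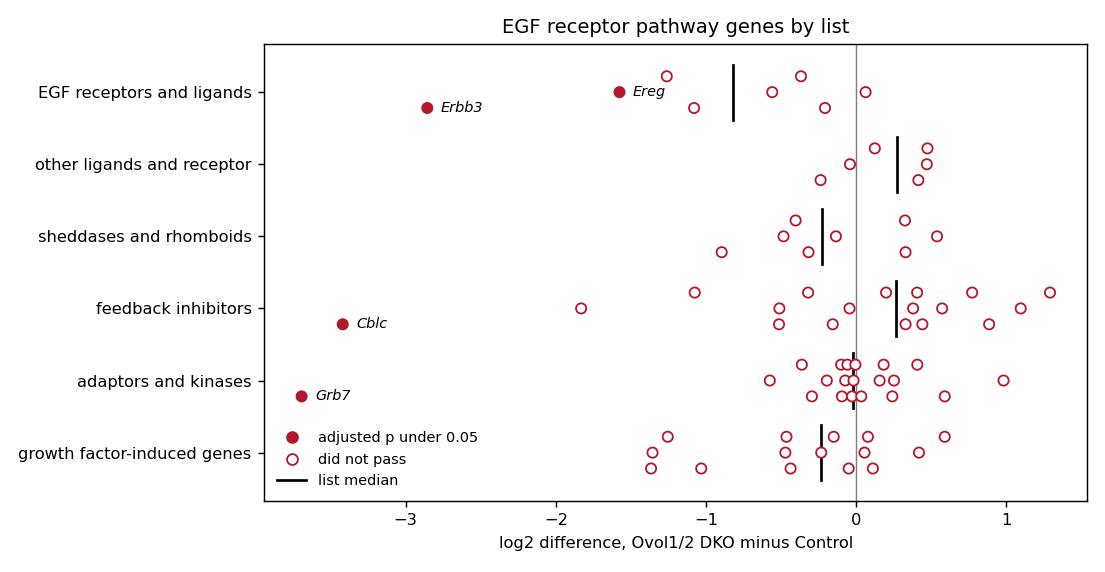
Log2 difference in Ovol1/2 DKO minus Control (horizontal axis) of the 8 members and the 67 measured pathway genes, by list. Each point is a gene, filled where the adjusted p was under 0.05, and the vertical bar of each row is the list median. Erbb3, Ereg, Cblc and Grb7 are the filled points, and the list medians run from -0.82 for the EGF receptors and ligands to 0.27 for the other ligands and receptor.

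Set against the arrays labelled Ovol1 KO, Ovol1/2 DKO gave the same calls among the 67 genes, Grb7 (-4.21, limma adjusted p = 0.00525, n = 2 each) and Cblc (-3.83, limma adjusted p = 0.00791, n = 2 each), both lower. Without replicate 1 of labelled Ovol1 KO the Cblc call was lost (limma adjusted p = 0.0528). With the replicate block 6 passed, beside 1022 of all 19938 genes, adding Rhbdf2 (-0.96, adjusted p = 0.0371), Ier3 (-1.10, adjusted p = 0.0463), Junb (-1.05, adjusted p = 0.0346) and, as the one gene higher in Ovol1/2 DKO, the receptor inhibitor Lrig1 (1.29, adjusted p = 0.0390). In labelled Ovol1 KO against Control, 0 of the 67 passed in limma and 0 had an unadjusted p under 0.05. The genes with the smallest p in each list there were Grb7 (0.52) and Sos1 (-0.34) among the adaptors, Dusp6 (-0.64) and Cbl (-0.36) among the feedback inhibitors, Timp3 (0.33) and Rhbdl2 (0.18) among the sheddase list, and Fosl1 (-0.71) and Etv4 (-0.57) among the growth factor-induced genes.

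The genes whose levels over the 6 arrays were most like those of Erbb3 were Elmo3, an engulfment and motility adaptor (Pearson r = 0.9998), Myh14, a nonmuscle myosin heavy chain (0.999), and Il1f6, an interleukin 1 family cytokine (0.999). Those most like Ereg were Tiparp (0.995), Ptpn3 (0.994) and Lcor (0.992), and those most like Egfr were Utrn, which encodes utrophin (0.992), Epb41l4a (0.972) and Daglb (0.970). The ranking covered 9525 genes. At r of at least 0.95 there were 328 genes for Erbb3, 60 for Ereg and 9 for Egfr. These values describe 6 arrays, in which every gene that separates Ovol1/2 DKO from the other 4 arrays correlates with every other, and the genes share the arrays and their scaling.

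**Figure D4:**
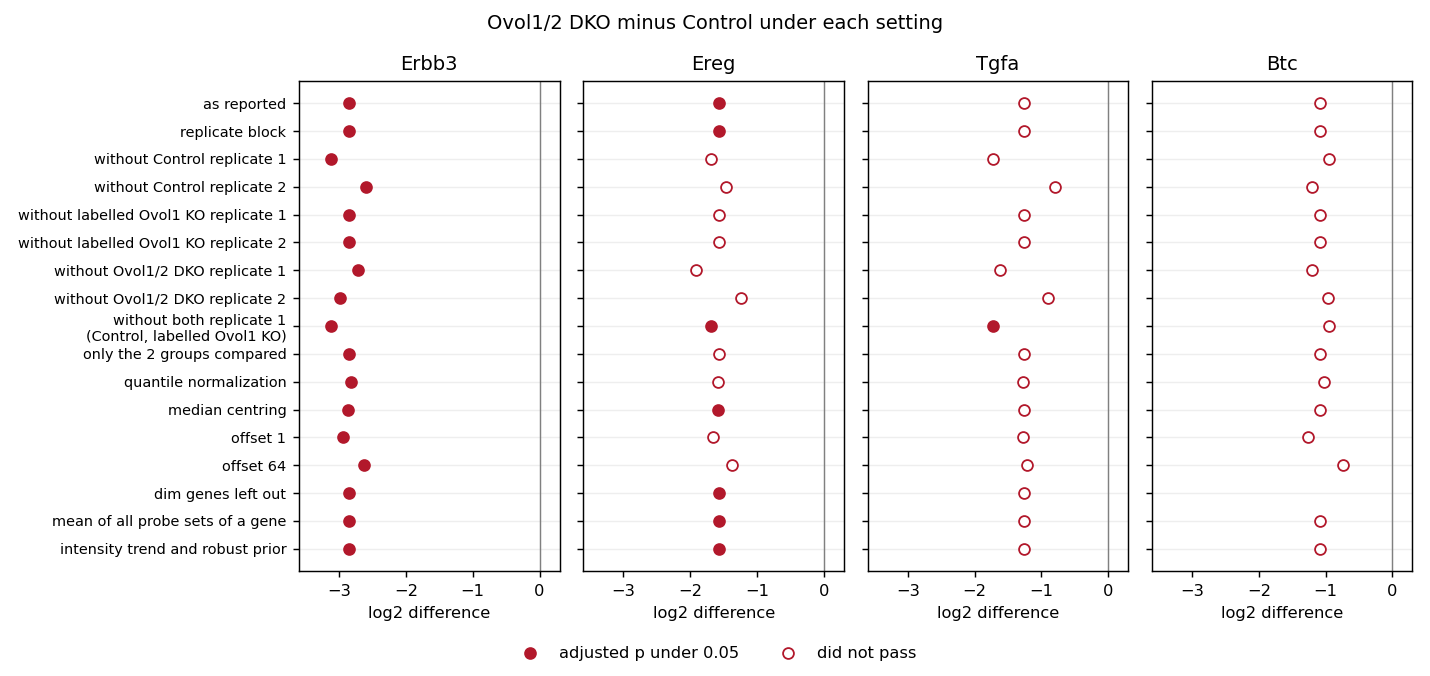
Log2 difference in Ovol1/2 DKO minus Control (horizontal axis) of Erbb3, Ereg, Tgfa and Btc as reported and under each of 16 other settings (rows). Filled points passed at an adjusted p under 0.05, and Btc has no value where dim genes were left out. Erbb3 is filled in every row, Ereg in the first and in 6 of the 16 others, Tgfa in 1 and Btc in none.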

How the data were processed

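RNA of 6 samples was amplified with a whole-transcript kit, labelled with biotin and hybridised to 1 array each, per the labels' protocols. The deposited table holds intensity per probe set, unlogged. It was made with Expression Console 1.1.1 and PLIER 2.0 (which summarises probes), per the submitters' processing notes. How background was corrected, arrays normalized or probe sets filtered is not given in the sources used here.

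Of 35556 probe sets, 21789 had 1 gene symbol in the platform annotation, 1621 had several and 12146 had none here. A RefSeq table (GRCm38.p6) gave current symbols through Entrez identifiers, with no match for 91. The probe set with the highest mean was kept per gene. Levels were log2(intensity + 16), which understates changes of dim genes. The 3 groups were fitted together by lmFit and eBayes of limma 3.58.1 (R 4.3.3). Residual degrees of freedom were 3 and prior ones 3.68. P-values were adjusted by Benjamini-Hochberg over 19938 genes within each comparison. Adjusted p-values come from this fit, except where the text names the block or another setting. The fit was run on simulated data for Ovol1/2 DKO minus Control, with noise drawn independently for each array. Deviations shared by arrays of the same replicate number were not simulated, so that check does not cover them. With 2 arrays against 2, the smallest exact two-sided p is 0.333, and the number of arrays limits the precision. The labels call arrays of a group biological replicates and do not say which mice they held.

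The members and lists were chosen with earlier results of these data known. Beside all members, up to 6 passing genes per pathway list and comparison were named, or the 2 with the smallest p where none passed, and every gene of the list with the other ligands. For likeness, the 3 genes with the highest correlation were named among those with an ordinary symbol and a mean of 7.56 (the median gene) or more. Genes read to check labels and cells, Zeb1, Mien1, Lrig1, Cblb and genes added by the block fall outside this rule and were chosen after their values were seen. The pairs of genes compared within arrays were set by no rule fixed in advance.

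Replicate numbers were checked as a possible pairing. After subtraction of group means, the replicate 1 arrays correlated at 0.261 for labelled Ovol1 KO and Control, 0.490 for Ovol1/2 DKO and Control and 0.194 for Ovol1/2 DKO and labelled Ovol1 KO. Every pair of groups was thus over 0.1, although the labels name no shared day or litter. The block was an alternative and is given beside results whose calls it changed. The other alternatives were leaving out each array or both replicate 1 arrays without Xist signal, fitting only the compared groups, median centring, quantile normalization, dropping dim genes, offsets of 1 or 64, averaging all probe sets of a gene, and an intensity trend with a robust prior.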

Additional observations from a re-analysis of the deposited data

How the results depend on the processing

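The members called in Ovol1/2 DKO minus Control were 2 as reported. The count was 1 to 1 when each array was left out in turn, and 1 with only these 2 groups fitted, with quantile normalization, with an offset of 1 and with an offset of 64. The lost call was Ereg each time. Leaving out either labelled Ovol1 KO array gave the same values for this comparison as fitting only these 2 groups. Those settings are therefore not separate checks. The count was 2 under the replicate block, median centring, dim genes left out, all probe sets averaged, and the intensity trend, and 3 without both replicate 1 arrays that lack Xist signal. Erbb3 passed in 16 of 16 settings (-3.12 to -2.60), and Ereg in 6 of 16 (-1.92 to -1.24, adjusted p 0.0200 to 0.278). In Ovol1/2 DKO minus labelled Ovol1 KO the count of members was 1, and 1 to 2 over the fits that left out 1 array, since Btc passed without replicate 2 of labelled Ovol1 KO (-1.48, adjusted p = 0.0488). Erbb3 passed there in 16 of 16 settings. In labelled Ovol1 KO minus Control the count of members was 0 in every setting. The paired fit with the replicate block changed no member's call: Erbb3 -2.86 and Ereg -1.58 in Ovol1/2 DKO minus Control, with adjusted p of 0.00868 and 0.0369.

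The count of all genes passing in Ovol1/2 DKO minus Control was 403, and 597 under the block, 99 without replicate 2 of Ovol1/2 DKO, 109 without its replicate 1, 152 without replicate 2 of Control, 155 with an offset of 64 and 1395 without both replicate 1 arrays. In Ovol1/2 DKO minus labelled Ovol1 KO it was 628, from 135 to 1508 over the settings, and 1022 under the block. In labelled Ovol1 KO minus Control it was 0, and at most 20.

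Every change of sign belonged to a difference that passed in no setting of its comparison. Over the fits that left out 1 array, Ovol1/2 DKO minus Control ran from -0.0191 to 0.14 for Egfr, -0.56 to 0.089 for Erbb4, -0.16 to 0.0803 for Egf and -0.0289 to 0.28 for Nrg4. Labelled Ovol1 KO minus Control ran from -0.13 to 0.91 for Erbb2, -0.27 to 0.65 for Tgfa, -0.58 to 0.40 for Btc and -0.0569 to 0.42 for Rhbdl2. Ovol1/2 DKO minus labelled Ovol1 KO ran from -0.69 to 0.31 for Hbegf. Without both replicate 1 arrays, labelled Ovol1 KO minus Control was 0.0033 for Egfr, -0.15 for Erbb3, -0.50 for Tgfa, -0.0071 for Rhbdl2 and -0.26 for Grb7. The causes were not tested, beyond the fewer arrays that fits leaving arrays out hold. With 2 arrays per group, each lone array was assumed to vary like the other groups. Btc has no value with dim genes left out, since its mean lay under that of the median gene.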
